A study of Mus musculus with 8 samples.

Results

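CXC chemokines are small secreted proteins named for a pair of cysteines with 1 other residue between them, and they direct leukocytes along gradients held on heparan sulfate. Of 10 listed CXC chemokine genes, 8 had an entry among the 11367 protein-coding genes measured in cultured adult mouse ventricular cardiomyocytes, and they were found by gene symbol. These are Cxcl1, Cxcl2, Cxcl3, Cxcl5, Cxcl10, Cxcl12, Cxcl16 and Pf4. Cxcl9 and Cxcl14 from the list, and the further family members Cxcl11, Cxcl13, Cxcl15, Cxcl17 and Ppbp, were not analysed here. The genes were chosen by symbol among entries that the deposited table had selected on a group mean of 0.5 FPKM or more in control or conditioned medium, and the list was drawn up with the medium differences already known. All 8 chemokine genes exceeded that level in both groups, the lowest mean being that of Cxcl3 in control medium (0.669 FPKM). FPKM corrects a gene's fragment number for its length and for the size of the library, so levels are per length, but they depended on the table: gene FPKM were 0.301 to 0.357 of the transcript FPKM for Cxcl3, 0.526 to 0.551 for Cxcl1 and 0.861 to 0.924 for Cxcl5. Levels below are gene FPKM unless the transcript table is named.

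Cardiomyocytes came from hearts of adult C57BL/6 mice and were incubated for 24 hours in control M199 medium (4 libraries) or in CCR2+ cardiac macrophage–conditioned medium (4 libraries). For the conditioned medium, CCR2+ macrophages were sorted from the hearts of Ccr2gfp/+ mice 4 weeks after transverse aortic constriction (TAC), a surgical pressure overload, and held in M199 for 24 hours. The macrophages themselves were not added. Both media contained (–)-Blebbistatin, which stops contraction, together with ITS and CD lipid. The Methods name serum for the macrophage medium and not for the control medium, so serum and macrophage products cannot be told apart. Whether each library had its own animal is not stated, so the p values reflect variation among libraries that may be technical.

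Mouse Cxcl1, Cxcl2, Cxcl3 and Cxcl5 carry a glutamate-leucine-arginine (ELR) motif ahead of the cysteines, act on the receptor CXCR2 and attract neutrophils. Their genes are classic targets of NF-kappaB downstream of IL-1, TNF and Toll-like receptors, and the mRNAs are short-lived because of AU-rich elements in the 3′ untranslated region (3′ UTR). Pf4, platelet factor 4, is stored in platelets and also made by some macrophages. Cxcl10 is an interferon-inducible ligand of CXCR3 on T cells, Cxcl12 is the homeostatic ligand of CXCR4 and ACKR3, and Cxcl16 is a membrane-bound ligand of CXCR6 that ADAM10 and ADAM17 can shed.

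Of the 8 genes, 5 lie in 1 cluster on chromosome 5 (GRCm38 5:90759360-90905938, 147 kb), in the order Cxcl5, Pf4, Cxcl3, Cxcl1 and Cxcl2, all on the plus strand. The cluster holds 7 protein-coding genes, of which Ppbp and Cxcl15 were not analysed here. Cxcl10 lies 1441 kb further along chromosome 5 on the minus strand (5:92346638-92348889). Cxcl12 is on chromosome 6 (6:117168535-117181367, plus strand) and Cxcl16 on chromosome 11 (11:70453983-70459984, minus strand). Within coding sequence, Cxcl2 and Cxcl3 were 89.7% identical, with a run of 110 shared bases in their transcripts, so fragments of these genes may have been assigned to the wrong one. Cxcl1 was 75.7% identical to Cxcl2 and 72.7% identical to Cxcl3, with shared runs of at most 23 bases.

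The promoters of the clustered ELR genes Cxcl1, Cxcl2 and Cxcl3 are shown because genes that moved and a gene that did not pass the test share a motif there. The sequences are from RefSeq (GRCm38.p6), which matched 6 of the 8 genes. Cxcl5, the remaining clustered ELR gene, and Cxcl16 had no match, so their promoters were not examined. Capitals mark matches to the NF-kappaB-like motif GGNNNTTCC on either strand and to TATAAA. Each runs from 110 bases before to 19 bases after the first transcribed base, which is written as position 0.
Cxcl1 (chr5:90891135-90891264, plus strand): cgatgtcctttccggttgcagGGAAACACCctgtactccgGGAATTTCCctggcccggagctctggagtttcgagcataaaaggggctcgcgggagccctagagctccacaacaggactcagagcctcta
Cxcl2 (chr5:90903789-90903918, plus strand): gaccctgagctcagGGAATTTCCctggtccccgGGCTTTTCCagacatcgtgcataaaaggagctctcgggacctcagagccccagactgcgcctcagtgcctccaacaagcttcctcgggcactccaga
Cxcl3 (chr5:90785991-90786120, plus strand): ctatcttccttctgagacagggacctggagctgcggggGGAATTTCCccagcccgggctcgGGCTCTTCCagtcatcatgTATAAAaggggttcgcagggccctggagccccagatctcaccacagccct

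The same 9 letters, GGAATTTCC, stood at position -70 in Cxcl1, -96 in Cxcl2 and -72 in Cxcl3, each beside a further match of the looser motif. GGNNNTTCC was present in 18.5% of 32851 promoters of 300 bases, and GGAATTTCC, picked after the 3 promoters had been read, in 104 of them (0.317%). TATAAA occurred in 13.6% of all promoters and, among these 3, in the Cxcl3 promoter at position -30. A match is a description of the letters and not of binding.

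The whole 300-base promoter of Cxcl10 is shown beside them because its motifs are of both the NF-kappaB and the interferon type. Capitals mark GGNNNTTCC and the interferon-response-like motif GAAANNGAA.
Cxcl10 (chr5:92348840-92349139, minus strand): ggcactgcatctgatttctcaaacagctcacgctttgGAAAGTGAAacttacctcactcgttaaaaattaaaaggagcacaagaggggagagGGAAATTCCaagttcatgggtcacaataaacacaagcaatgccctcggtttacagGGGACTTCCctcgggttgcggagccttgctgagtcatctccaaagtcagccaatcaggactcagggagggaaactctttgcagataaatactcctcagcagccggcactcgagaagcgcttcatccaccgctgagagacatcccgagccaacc

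GAAAGTGAA was at position -213, and the NF-kappaB-like matches were at -158 and -103. GAAANNGAA was present in 8.56% of promoters. None of the motifs searched, which included the STAT-type TTCNNNGAA (8.30% of promoters), was in the promoter windows of Cxcl12 and Pf4.

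Conditioned and control medium were compared with limma on log2(FPKM + 1) across the whole table, with Benjamini-Hochberg adjustment, and rises and falls are those with an adjusted p under 0.05. The added 1 makes this scale understate changes at low FPKM. Cxcl5, Cxcl1 and Cxcl3 rose in conditioned medium, which is 3 of 8 CXC chemokine genes, where 0.554% of all genes rose. Cxcl2, Pf4, Cxcl10, Cxcl12 and Cxcl16 did not pass the test, and 0 of the 8, or of all genes, fell. At an unadjusted p under 0.05, 5 of the 8 were higher (8.78% of all genes) and 0 lower (0.845% of all genes). A gene-wise F test with a term for library size called 0 genes after adjustment, with 643 higher and 1327 lower unadjusted, among them 5 of the 8 higher. That term was a sum over the lower log2(FPKM + 1) values of each library and not its read depth, which is unknown. The conditioned-medium libraries lay entirely above the control libraries for 5 of the 8 genes, against 5.08% of all genes, and entirely below them for 0 of the 8 (1.46% of all genes). The log2 fold change was above 0 for 8 of 8 (53.9% of all genes), with a median of 1.22 against 0.024 over all genes. The genes were proposed with these results known, so the counts describe them and are not independent evidence.

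**Figure D1:**
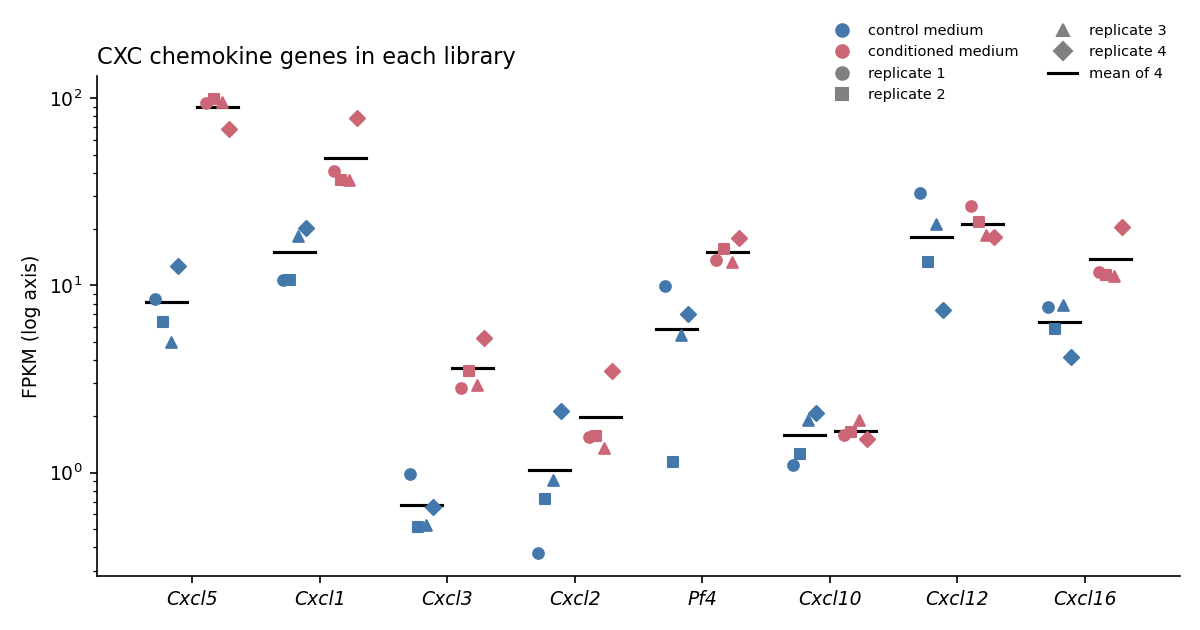
FPKM of the 8 CXC chemokine genes in each of the 4 control-medium and 4 conditioned-medium libraries, on a log axis, with group means. The groups are apart for Cxcl5, Cxcl1, Cxcl3, Pf4 and Cxcl16 and overlap for Cxcl2, Cxcl10 and Cxcl12, and conditioned-medium replicate 4 has the highest Cxcl1 (78.1 FPKM) and the lowest Cxcl5 (68.1 FPKM) of its group.

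Libraries differed in ways that the media do not name. The share of summed FPKM from mitochondrially encoded genes was 63.0% in conditioned-medium replicate 4 and 30.2% to 40.7% across the remaining 7 libraries. In a bulk library, fewer cells of a type and less RNA per cell cannot be told apart. The 12 cardiomyocyte markers were abundant in every library (summed FPKM 8308 to 12785 in control and 4720 to 10904 in conditioned medium, lowest in conditioned-medium replicate 4), with 0 of 12 called or past an unadjusted p of 0.05, though all 12 log2 fold changes were below 0 (median -0.41). The 16 endothelial markers summed to 134 to 293 FPKM in control and 299 to 539 in conditioned medium, with 0 called and 12 higher at an unadjusted p under 0.05 (16 of 16 log2 fold changes above 0, median 0.69). Their mean log2(FPKM + 1), used below as a covariate, was higher in every conditioned-medium library than in any control. A fit with that covariate therefore cannot fully separate the medium from these markers. Over all genes, 0.554% were called higher, 8.78% were higher unadjusted and 53.9% had a log2 fold change above 0. The 10 macrophage markers measured of 16 summed to 22.2 to 171 and 149 to 161 FPKM, with 0 called and 2 higher unadjusted (11 of 11 entries above 0, median 0.52). Both Itgam entries among them were present only through their means in conditioned medium (control means 0.373 and 0.220 FPKM), so their direction was set by the filter. The 15 fibroblast markers measured of 16 summed to 29.8 to 80.4 and 72.9 to 87.1 FPKM, with 1 called and 3 higher unadjusted (14 of 15 above 0, median 0.35). Mfap5 among them was present only through its mean in conditioned medium (control mean 0.483 FPKM). The 1 called, Dcn, was not called with the covariate or without control replicate 2, 3 or 4 or conditioned-medium replicate 1, 2 or 3. The 9 mural markers measured of 10 summed to 120 to 189 and 85.1 to 154 FPKM. Of these, 0 were called, with 3 higher and 1 lower unadjusted (7 of 9 above 0, median 0.48). From the macrophage list Fcgr1, Cx3cr1, Ccr2, Lyve1, Cd163 and Ptprc, and all 10 neutrophil markers, had no entry among the genes measured. The part of these cells in the chemokine values was not tested.

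Cxcl5 showed the largest log2 fold change of all 11367 genes. In control medium it was at 8.46, 6.36, 5.01 and 12.8 FPKM in replicates 1 to 4, and in conditioned medium at 94.6, 99.3, 95.002 and 68.1 FPKM. Every conditioned-medium library was far above every control library, and the lowest of them was replicate 4. Group means were 8.15 ± 3.39 and 89.3 ± 14.3 FPKM (SD, n = 4 each), a 10.96-fold ratio. The log2 fold change was 3.36 ± 0.25 (SE, 95% CI 2.81 to 3.91) with limma, adjusted p = 2.2e-04. With the endothelial marker mean as covariate it was 3.86 (adjusted p = 0.00324 with limma), and without control replicates 2 and 4, which had the lowest endothelial markers, 3.57 (adjusted p = 0.0143 with limma). The F test gave an adjusted p of 0.0916.

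Cxcl1, known as KC in the mouse, was already among the more abundant CXC chemokine transcripts without conditioned medium. Control libraries held 10.7, 10.8, 18.3 and 20.3 FPKM and conditioned-medium libraries 40.7, 36.7, 36.8 and 78.1 FPKM. The groups did not overlap, and conditioned-medium replicate 4 stood well above the other 3. Means were 15.0 ± 5.02 and 48.1 ± 20.1 FPKM (SD, n = 4 each), a ratio of 3.20, and the log2 fold change was 1.59 ± 0.29 (SE, 95% CI 0.97 to 2.22), adjusted p = 0.0300 with limma. The call did not hold in 11 of 19 alternatives. In limma the adjusted p was 0.133 with equal totals over nuclear-encoded genes, 0.142 without control replicate 2, 0.449 without control replicates 2 and 4, and 0.9999 with the endothelial covariate, where the log2 fold change was 1.48. Leaving out control replicate 1, control replicate 4 or conditioned-medium replicate 1 also ended the call (adjusted p = 0.0653, 0.0543 and 0.0738 with limma). Without conditioned-medium replicate 4 it was 1.34 (adjusted p = 0.0226 with limma).

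Cxcl3 had the lowest gene FPKM of the 8 in control medium, whereas in the transcript table it was above Cxcl2 (2.08 ± 0.707 against 1.72 ± 1.37 FPKM, SD, n = 4). It was at 0.983, 0.512, 0.524 and 0.657 FPKM there and at 2.83, 3.50, 2.92 and 5.24 FPKM in conditioned medium. All 4 conditioned-medium libraries lay above all control libraries, again with replicate 4 highest. Means were 0.669 ± 0.219 and 3.62 ± 1.12 FPKM (SD, n = 4 each), a ratio of 5.42. The log2 fold change was 1.45 ± 0.18 (SE, 95% CI 1.05 to 1.85), adjusted p = 0.00338 with limma. With 0.1 added in place of 1 it was 2.27, which shows how far the added constant holds down the fold of a gene near 1 FPKM. The call did not hold with quantile normalization (adjusted p = 0.0627), without control replicates 2 and 4 (0.153) or with the endothelial covariate (1.18, adjusted p = 0.345), all with limma, nor in the F test (0.111).

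Cxcl2, or MIP-2, is the gene most like Cxcl3 in sequence. Its levels were 0.372, 0.722, 0.910 and 2.14 FPKM in control and 1.56, 1.57, 1.35 and 3.47 FPKM in conditioned medium. The groups overlapped, since control replicate 4 exceeded 3 of the 4 conditioned-medium libraries. Means were 1.04 ± 0.768 and 1.99 ± 0.995 FPKM (SD, n = 4 each), with a log2 fold change of 0.57 (95% CI -0.0055 to 1.15) and an adjusted p of 0.527 with limma. It was 0.36 without conditioned-medium replicate 4 and 1.01 with 0.1 added in place of 1, neither of which passed the test. Because Cxcl2 and Cxcl3 share a long run of bases, the difference between them is uncertain, and it was not tested.

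Pf4 lies between Cxcl5 and Cxcl3 in the cluster. It was at 9.94, 1.135, 5.42 and 7.005 FPKM in control medium and at 13.7, 15.6, 13.4 and 17.9 FPKM in conditioned medium. The groups were apart, and the control libraries were widely spread, with control replicate 2 far below the rest. Means were 5.87 ± 3.67 and 15.1 ± 2.09 FPKM (SD, n = 4 each). The log2 fold change was 1.45 ± 0.40 (SE, 95% CI 0.57 to 2.32), adjusted p = 0.244 with limma, and 0.96 without control replicate 2. The macrophage markers were also lowest in control replicate 2 (summed FPKM 22.2), where Lyz2, with the highest FPKM among those markers, stood at 13.4 FPKM against 63.5 to 128 FPKM in the remaining controls. The fibroblast and mural sums were lowest of the controls there too (29.8 and 120 FPKM), while the endothelial sum was lowest in control replicate 4 (134 FPKM). The macrophage sum was highest in control replicate 1 (171 FPKM), where Pf4 was below every conditioned-medium library. Conditioned-medium replicate 4 had the highest Pf4 and, in unscaled FPKM, the lowest macrophage sum of its group (149 FPKM). Its mitochondrially encoded share of 63.0% lowers the FPKM of its other genes. With equal totals over nuclear-encoded genes its Pf4 was 25.6 FPKM, against 12.3 to 14.9 FPKM in the other conditioned-medium libraries. The macrophage sum was not rescaled, so its rank in this group may rest on the scaling. The part of macrophages in the Pf4 values was not tested. Of 10 platelet markers, Itgb3 and Gp5 had an entry. Their log2 fold changes had opposite signs, and neither passed the test. Gp5, a platelet glycoprotein, had means of 1.99 ± 1.127 and 1.15 ± 0.264 FPKM (SD, n = 4 each; log2 fold change -0.41). Itgb3, an integrin subunit also found on other cells, was at 0.781 to 2.59 FPKM in control and 2.90 to 4.76 FPKM in conditioned medium (log2 fold change 0.72, adjusted p = 0.372 with limma).

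Cxcl16 was at 7.67, 5.87, 7.85 and 4.16 FPKM in control medium and at 11.8, 11.4, 11.3 and 20.6 FPKM in conditioned medium. The groups did not overlap, with conditioned-medium replicate 4 well above the other 3, which were nearly equal. Means were 6.39 ± 1.73 and 13.8 ± 4.55 FPKM (SD, n = 4 each). The log2 fold change was 0.99 ± 0.24 (SE, 95% CI 0.47 to 1.51), adjusted p = 0.148 with limma, and 0.35 with the endothelial covariate.

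Cxcl12, the most abundant of the 8 on average in control medium, was at 31.0, 13.3, 21.3 and 7.38 FPKM there and at 26.5, 21.9, 18.6 and 18.2 FPKM in conditioned medium. The groups overlapped throughout, and the highest and the lowest library were both controls. Means were 18.2 ± 10.2 and 21.3 ± 3.85 FPKM (SD, n = 4 each), log2 fold change 0.37 (95% CI -0.38 to 1.12), adjusted p = 0.763 with limma. Leaving out 1 library gave 0.024 (control replicate 4) to 0.67 (control replicate 1). The direction turned to -0.28 without control replicates 2 and 4, the controls lowest in both Cxcl12 and the endothelial markers. It turned to -0.44 with the endothelial covariate, whose values did not overlap between the media. That fit cannot fully separate the medium from the endothelial markers.

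Cxcl10 was at 1.10, 1.25, 1.92 and 2.09 FPKM in control and 1.59, 1.65, 1.92 and 1.52 FPKM in conditioned medium. All conditioned-medium libraries lay within the control range. Means were 1.59 ± 0.487 and 1.67 ± 0.176 FPKM (SD, n = 4 each), log2 fold change 0.060 (95% CI -0.29 to 0.41), adjusted p = 0.918 with limma. The interval leaves room for a change of up to 0.41 on this scale in Cxcl10, against a lower bound of 2.81 for Cxcl5. The sign was negative under quantile normalization (-0.090).

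**Figure D2:**
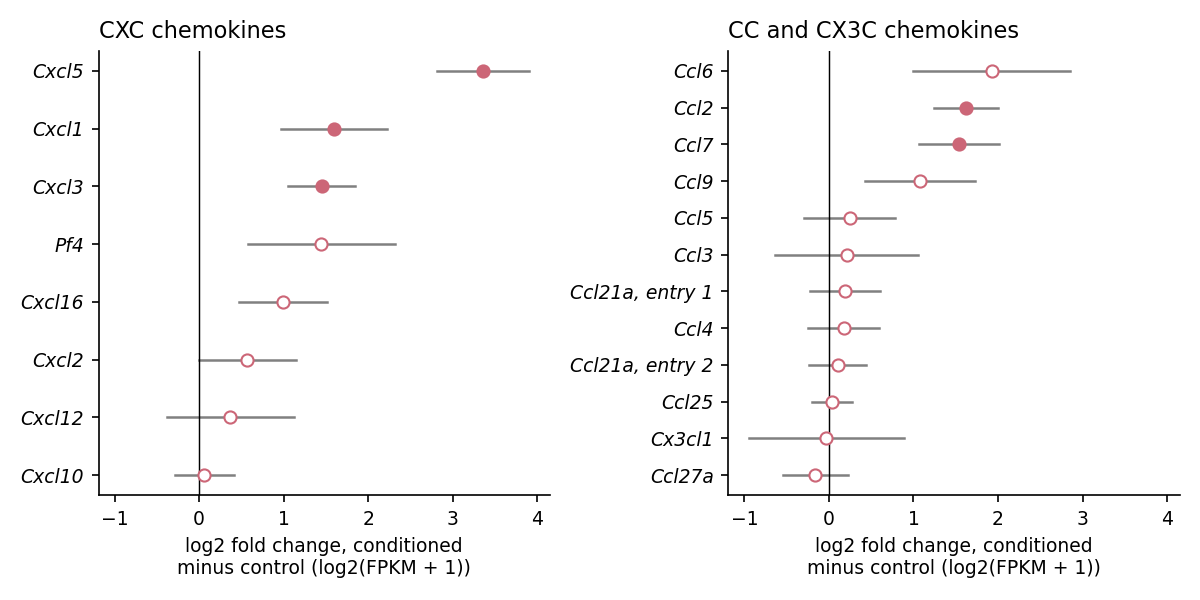
Log2 fold change (conditioned over control medium, log2(FPKM + 1) scale) with 95% confidence intervals from limma for the CXC chemokine genes and the other chemokine entries measured, with filled points at an adjusted p under 0.05. Cxcl5 stands at 3.36, Ccl2 at 1.62, Cxcl1 at 1.59 and Ccl7 at 1.54, while the intervals of Cxcl2, Cxcl10 and Cxcl12 span 0.

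The make-up of the CXC chemokine transcripts differed between the media. The 8 genes summed to 39.9 to 70.2 FPKM in control libraries (57.0 ± 12.7, SD, n = 4) and 181 to 213 FPKM in conditioned-medium libraries (195 ± 13.3, SD, n = 4). The ELR genes Cxcl1, Cxcl2, Cxcl3 and Cxcl5 made up 29.2%, 46.0%, 40.4% and 63.5% of that sum in control replicates 1 to 4, and 72.3%, 73.6%, 75.1% and 72.7% in conditioned-medium replicates 1 to 4. The share was even across conditioned-medium libraries and scattered across controls. Cxcl12 led in control replicates 1 to 3 and Cxcl1 in control replicate 4. In conditioned medium Cxcl5 led in replicates 1 to 3 at 48.9% to 52.4% of the sum, and Cxcl1 led in replicate 4 at 36.7%. The ratio of Cxcl5 to Cxcl1 was 0.274 to 0.790 in control libraries, 2.32, 2.71 and 2.58 in conditioned-medium replicates 1 to 3 and 0.871 in replicate 4. A ratio within a library does not depend on its total FPKM. By transcript FPKM the ratio was 0.164 to 0.489 in control libraries, 1.44, 1.70 and 1.60 in conditioned-medium replicates 1 to 3 and 0.557 in replicate 4, so its size rests on the table, and Cxcl1 rather than Cxcl12 then led in control replicate 3.

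**Figure D3:**
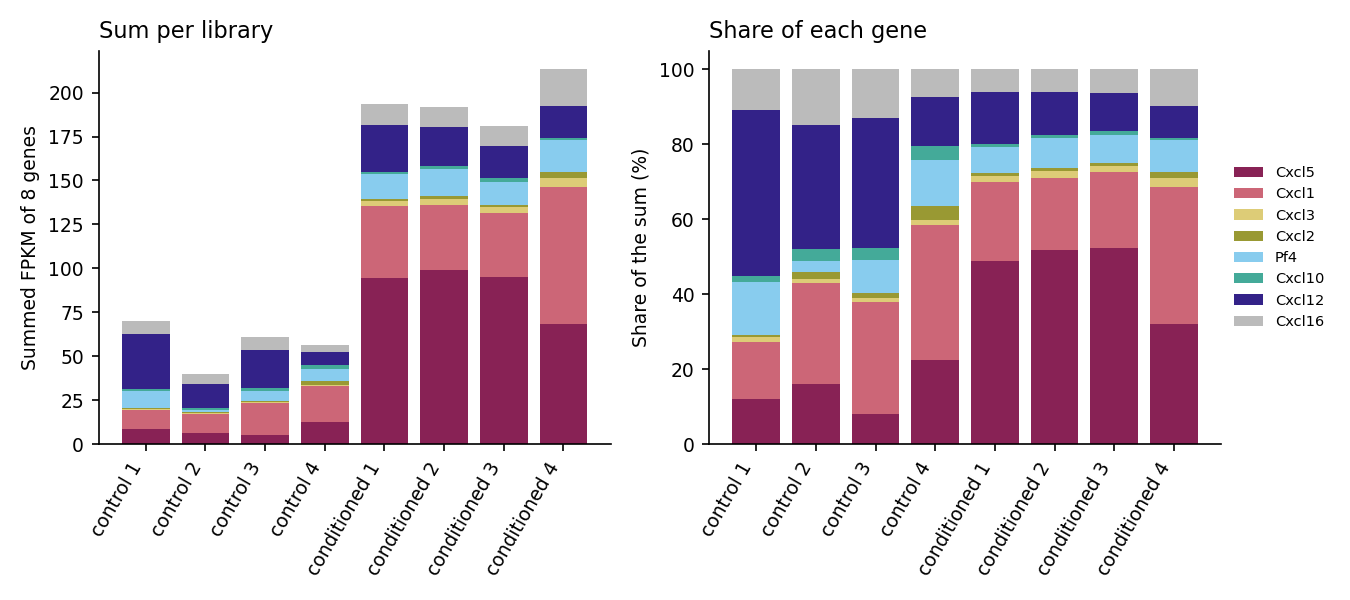
Share of each CXC chemokine gene in the summed FPKM of the 8 genes, in percent, for each library. Cxcl5 takes 8.18% to 22.6% in the control libraries and 31.9% to 52.4% in the conditioned-medium libraries, while the share of Cxcl12 is 13.1% to 44.1% and 8.53% to 13.7%.

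By mean level, the order in control medium was Cxcl12, Cxcl1, Cxcl5, Cxcl16, Pf4, Cxcl10, Cxcl2 and Cxcl3. The ranges over libraries overlapped for every pair of neighbours in that order. Within libraries, Cxcl1 was above Cxcl5 in 4 of 4, and each of the other neighbours kept the order in 2 or 3 of 4. In conditioned medium the order was Cxcl5, Cxcl1, Cxcl12, Pf4, Cxcl16, Cxcl3, Cxcl2 and Cxcl10. Gaps between the ranges lay between Cxcl1 (at least 36.7 FPKM) and Cxcl12 (at most 26.5 FPKM), between Cxcl12 (at least 18.2 FPKM) and Pf4 (at most 17.9 FPKM), and between Cxcl16 and Cxcl3, while the other neighbours overlapped, Cxcl5 and Cxcl1 through replicate 4 alone. Cxcl3 was above Cxcl2 in 4 of 4 libraries. By transcript FPKM Cxcl3 moved above Cxcl2 and Pf4 above Cxcl16 in control medium, and Cxcl10 above Cxcl2 in conditioned medium. Of pairs that were neighbours by both measures, Cxcl1 and Cxcl5 were then apart in control medium. Cxcl16 and Cxcl3 then overlapped in conditioned medium.

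AU-rich pentamers, ATTTA in the DNA sequence, were counted in the 3′ UTR of each gene. Cxcl2 had 11 of them (15.0 per kb), Cxcl1 7 (11.8 per kb), Cxcl3 5 (7.75 per kb) and Cxcl5 5 (4.50 per kb), where the median over 9792 genes was 1.38 per kb. Cxcl12 had 4 in a long 3′ UTR (0.771 per kb), Cxcl16 had 2 (1.41 per kb) and Cxcl10 had 2 (2.74 per kb). Pf4 had 1 in a 3′ UTR of 123 bases (8.13 per kb), a density above those of Cxcl3 and Cxcl5 that rests on a single match. Cxcl2, the densest, did not pass the expression test and Cxcl5, with the largest fold, had the lowest density of the 4 ELR genes.

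Cxcl12 was the only CXC chemokine gene with more than 1 transcript in the transcript table, and isoforms of Cxcl12 are known to differ at the carboxyl end of the protein. Cxcl12-201 made up 67.9%, 92.1%, 89.0% and 67.5% of the transcript FPKM in control replicates 1 to 4 and 62.4%, 62.7%, 92.2% and 87.1% in conditioned-medium replicates 1 to 4. Its mean share was 79.1 ± 13.3% and 76.1 ± 15.8% (SD, n = 4 each), a difference of -3.003 percentage points (two-sided exact permutation test over 70 arrangements, p = 0.571, smallest possible p 0.0286). The spread within each group came with Cxcl12-202, at 13.7, 0.0374, 0.0129 and 4.39 FPKM in control and 12.6, 11.2, 0.122 and 0.153 FPKM in conditioned medium. Libraries of both groups were thus either at several FPKM or close to 0.

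**Figure D4:**
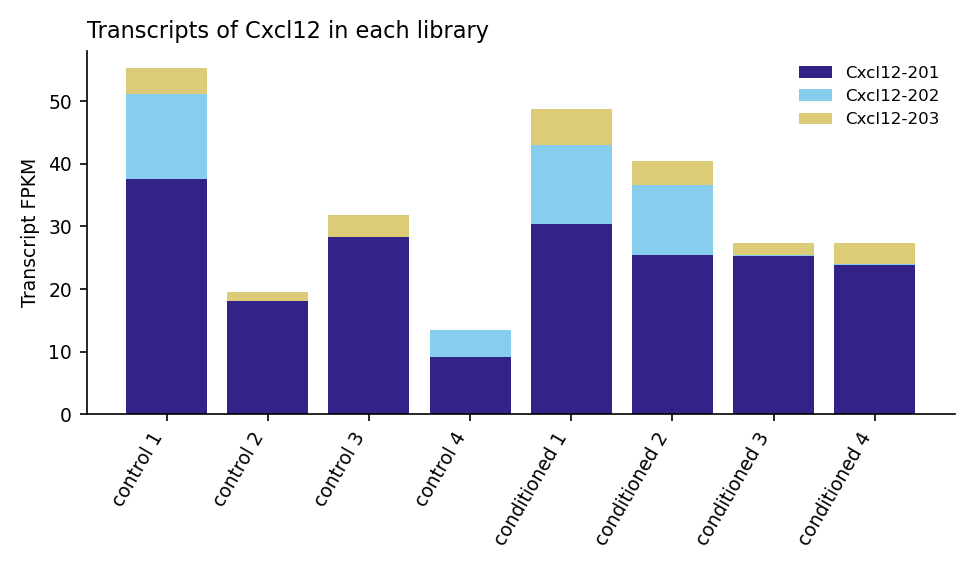
FPKM of the transcripts Cxcl12-201, Cxcl12-202 and Cxcl12-203 in each library. Cxcl12-202 is at 4.39 to 13.7 FPKM in 2 control and 2 conditioned-medium libraries and at 0.0129 to 0.153 FPKM in the other 4.

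The receptors that these chemokines act on were sparsely measured. Cxcr1, Cxcr2, Cxcr3 and Cxcr5 had no entry among the genes measured, so the signalling receptors for the ELR ligands and for Cxcl10 were not analysed here. Ackr1, an atypical receptor that binds ELR ligands, had means of 0.183 ± 0.147 and 0.671 ± 0.600 FPKM (SD, n = 4 each). It had an entry only through its mean in conditioned medium, so its direction was set by the filter at 0.5 FPKM. Of the 4 receptors with an entry, 0 passed the test with limma, and the median log2 fold change, with Ackr1 included, was -0.081. Apart from Ackr1, the log2 fold changes were 0.98 for Cxcr4, -0.60 for Cxcr6 and -0.69 for Ackr3. At an unadjusted p under 0.05, 1 was higher (8.78% of all genes). Cxcr4, the signalling receptor of Cxcl12, was at 11.5 to 19.7 FPKM in control and 28.4, 20.9, 24.6 and 60.9 FPKM in conditioned medium, which did not overlap (log2 fold change 0.98, adjusted p = 0.319 with limma). Ackr3, which scavenges Cxcl12, was at 9.04 to 18.3 FPKM in control and 9.98, 11.3, 10.99 and 2.22 FPKM in conditioned medium. Conditioned-medium replicate 4 was thus highest in Cxcr4 and lowest in Ackr3. Cxcr6, the receptor of Cxcl16, was at 2.43 to 3.49 FPKM in control and 2.73, 2.22, 2.69 and 0.185 FPKM in conditioned medium.

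Among proteases and heparan sulfate carriers that process or hold chemokines, 0 of 14 passed the test with limma. Unadjusted, 3 were higher and 1 lower (8.78% and 0.845% of all genes), with a median log2 fold change of 0.35. Mmp8, 1 of those higher, had an entry only through its mean in conditioned medium (0.456 FPKM in control, 0.976 FPKM in conditioned medium). Sdc3, a syndecan, had the smallest p (log2 fold change 0.71, adjusted p = 0.297 with limma), and Gpc1, a glypican with the highest mean over all 8 libraries, was at 36.3 ± 3.64 and 23.4 ± 9.27 FPKM (SD, n = 4 each). The Cxcl16 sheddases Adam10 (log2 fold change 0.23) and Adam17 (0.25) also did not pass the test.

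Upstream of the ELR chemokines, 0 of 18 measured genes of IL-1, TNF, IL-17 and Toll-like receptor signalling passed the test with limma (6 higher and 0 lower unadjusted, median 0.21). Over all genes, 8.78% were higher and 0.845% lower unadjusted. Il1rap, 1 of those 6, had an entry only through its mean in conditioned medium (0.393 FPKM in control, 0.772 FPKM in conditioned medium). Il1r1, the IL-1 receptor, had the smallest p and was at 1.75 to 4.44 FPKM in control and 5.71 to 5.85 FPKM in conditioned medium (log2 fold change 0.77, adjusted p = 0.235 with limma). Tnfrsf1a, the TNF receptor with the highest level in the list, had means of 32.1 ± 9.21 and 44.1 ± 5.06 FPKM (SD, n = 4 each). Of 15 NF-kappaB subunits and regulators 0 passed (2 higher and 0 lower unadjusted, median 0.080). Nfkbid, not 1 of those higher, had an entry only through its mean in conditioned medium (0.363 FPKM in control, 0.669 FPKM in conditioned medium). Nfkbiz, a coactivator in the IL-17 and IL-1 response, was at 3.19 to 3.96 and 4.83 to 6.57 FPKM without overlap (adjusted p = 0.319 with limma), and Nfkbia, the inhibitor IkappaB-alpha, at 71.8 to 142 and 77.7 to 131 FPKM. Of 8 regulators of AU-rich mRNA decay 0 passed (1 higher and 0 lower unadjusted, median -0.081), Zc3h12a, the endonuclease regnase-1, having the smallest p (log2 fold change 0.43, adjusted p = 0.517 with limma) and Zfp36l1 the highest level (41.4 ± 9.22 and 34.8 ± 11.5 FPKM, SD, n = 4 each).

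Of 16 interferon receptor, STAT and IRF genes, 6 were higher and 0 lower unadjusted (8.78% and 0.845% of all genes), with a median of 0.31. After adjustment 3 rose with limma, where 0.554% of all genes rose. They were Irf7 (log2 fold change 1.49, adjusted p = 0.0021), Stat2 (1.06, adjusted p = 0.0101) and Irf9 (1.02, adjusted p = 0.0210), while the interferon-inducible Cxcl10 did not pass the test in the same libraries. Of the list, 0 were called with the endothelial covariate, without control replicates 2 and 4 or in the F test, and 1 without control replicate 2; 2 were called without control replicate 4 or conditioned-medium replicate 1, 2 or 3. Ifngr2, an interferon gamma receptor subunit with the highest level here, had means of 48.4 ± 5.67 and 39.6 ± 15.5 FPKM (SD, n = 4 each).

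Compared with the other chemokine families, 2 of 12 entries for CC and CX3C chemokines rose with limma (0.554% of all genes), Ccl2 and Ccl7, which attract monocytes. Unadjusted, 4 were higher and 0 lower (8.78% and 0.845% of all genes), with a median log2 fold change of 0.20. An entry of Ccl21a, not among those 4, was present only through its mean in conditioned medium (0.445 FPKM in control, 0.537 FPKM in conditioned medium). Xcl1, the XC chemokine listed, had no entry. With the endothelial covariate, without control replicates 2 and 4 or in the F test, 0 were called. The log2 fold change of Ccl6 was larger than that of Ccl2 or Ccl7, 1.92, with an adjusted p of 0.107 with limma. Ccl2 was at 27.2 to 38.2 FPKM in control and 89.1 to 107 FPKM in conditioned medium. Ccl2 was above Cxcl5 in every control library, whereas the ranges of the pair overlapped in conditioned medium.

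The genes whose pattern over the 8 libraries was most like that of 4 CXC chemokines were found by the root-mean-square distance between log2(FPKM + 1) values, each centred on its mean. For Cxcl5 they were Ifi27l2a (0.70), Ifit3 (0.74) and Isg15 (0.80), with a median of 1.72 over all genes. For Cxcl1 they were Pdpn (0.33), Cxcl3 (0.38) and Slfn2 (0.39), with a median of 0.98. For Cxcl12 they were Trib2 (0.16), Hspg2 (0.18) and Ccnd1 (0.18), with a median of 0.51, and for Cxcl16 Igfbp5 (0.085), Mlkl (0.10) and Cdc42ep2 (0.11), with a median of 0.64. The values were not scaled, so genes near Cxcl5 had to rise strongly as well (log2 fold changes 2.63, 2.66 and 2.86). A gene's distance from a flat gene is its own spread, 1.72 for Cxcl5, 0.90 for Cxcl1, 0.56 for Cxcl12 and 0.59 for Cxcl16. The medians thus lie near the distance from a flat gene. The libraries share their depth and cell make-up across these genes, so the distances are descriptions.

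**Figure D5:**
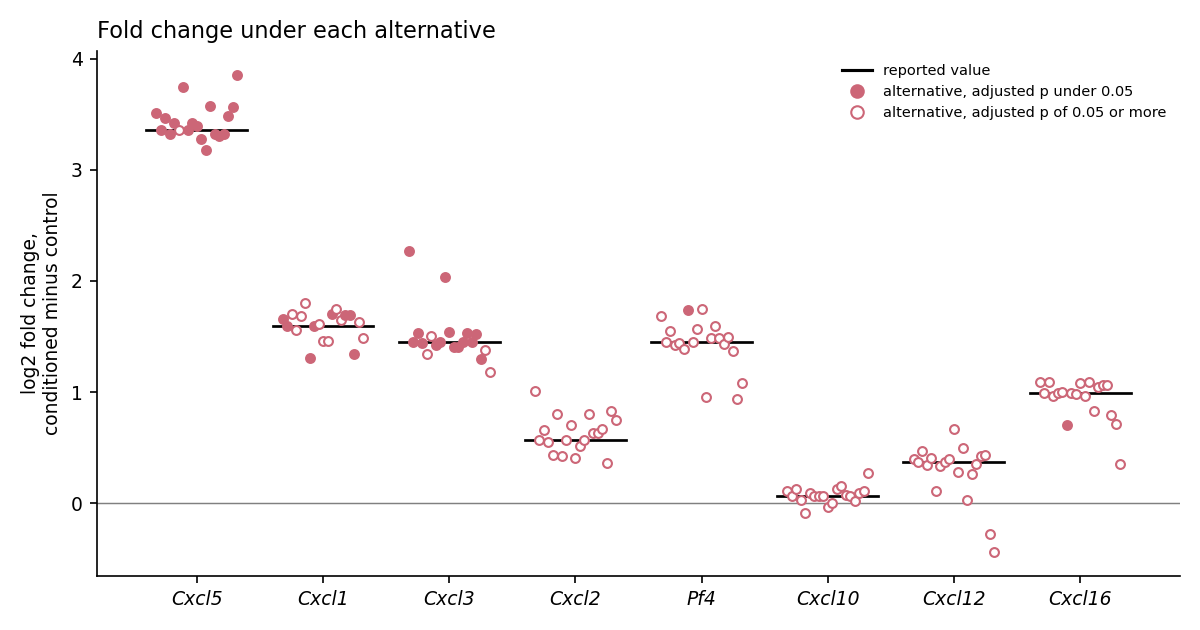
Log2 fold change of each CXC chemokine gene under the reported fit and the 19 alternatives, on the log2 scale, with lines at the reported values and filled points at an adjusted p under 0.05. Cxcl5 stays between 3.18 and 3.86, Cxcl1 between 1.31 and 1.80 and Cxcl3 between 1.18 and 2.27, and Cxcl10 and Cxcl12 take both signs.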

How the data were processed

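RNA of 4 control-medium and 4 conditioned-medium libraries was measured. The authors trimmed reads with cutadapt, aligned them to GRCm38 with HISAT2, used StringTie for abundances and Ballgown for FPKM, and deposited FPKM values of genes and of transcripts. Versions, annotation release and further scaling are not given in the sources. Depth is unknown, since low FPKM were not whole multiples of a read (best mean cosine 0.138 to 0.199), so precision is the spread between libraries. The gene table had been filtered on low values, and 1 line with no entry was left out.

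Log2(FPKM + 1) was tested with limma 3.58.1 in R 4.3.3 (moderated variances with trend, two-sided, Benjamini-Hochberg over 11367 genes). The script was tested on simulated data. Sequences were analysed with Biopython 1.88, and 87.2% of gene IDs matched GENCODE vM21, including the 8 chemokine genes at the same coordinates. The 3′ UTRs are of at least 100 bases, from that annotation. The members, gene lists and tests were chosen with earlier results of these data known. All listed chemokines are named, and from each other pathway list the genes that passed the test, or else the gene of smallest p, and the one with the highest mean FPKM over the libraries. Further genes (Cxcr6, Ackr1, Ackr3, Adam10, Adam17, Gp5, Ccl6) were chosen after their values were seen, as were those named for an entry only through conditioned medium. Levels and ratios from the transcript table were added after seeing the data. Alternatives were another pseudocount, a filter of 1 FPKM, 3 scalings, the F test, array weights, a replicate block, summed transcripts, left-out libraries and an endothelial covariate. Of 4 same-numbered pairs of libraries, 1 had a correlation of deviations over 0.1, so libraries were not treated as paired.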

Additional observations from a re-analysis of the deposited data

Results flagged for a closer look

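In conditioned medium, replicate 4 lay far from the other 3 libraries for 4 of the 8 CXC chemokine genes. Cxcl1 was at 78.1 FPKM there against 36.7 to 40.7 FPKM in the others, Cxcl16 at 20.6 against 11.3 to 11.8 FPKM, and Cxcl2 at 3.47 against 1.35 to 1.57 FPKM. Cxcl5 was low instead, at 68.1 against 94.6 to 99.3 FPKM. Each gap divided by the group's range passed Dixon's 95% value for 4 samples. Of 16 groups tested these 4 passed, all in the same library. The rate by chance is about 1 in 20 for independent groups. Genes of the same libraries are not independent, so the count is a description. The library also had 63.0% mitochondrially encoded FPKM, the highest endothelial sum (539 FPKM) and the lowest cardiomyocyte sum (4720 FPKM), whose part in these values was not tested. With equal totals over nuclear-encoded genes, conditioned-medium Cxcl5 ranged from 87.4 to 97.1 FPKM with replicate 4 highest, and no longer passed that value. Cxcl1 then ranged from 33.8 to 111 FPKM, and Cxcl3, from 2.69 to 7.48 FPKM, also passed it.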

How the results depend on the processing

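Of the 3 CXC chemokine genes called higher, 1 was called with quantile normalization, without control replicates 2 and 4 or with the endothelial covariate (Cxcl5 each time), 0 with the F test and 5 with array weights (Pf4 and Cxcl16 added); leaving out 1 library gave 2 to 3. Over all genes the 63 called higher became 0 with the F test (643 unadjusted), 882 with array weights, 2 without control replicates 2 and 4 and 1 with the covariate, and 31 (without control replicate 2) to 110 (without control replicate 1) with 1 library left out. The 0 called lower became 1 with a pseudocount of 0.1, with median-of-ratios factors, with summed transcripts and without control replicates 2 and 4, 2 with quantile normalization, 51 with array weights and 0 to 2 with 1 library left out. The sign of Cxcl10 turned with quantile normalization (-0.090) and with control replicate 1 (-0.034) or 2 (-0.000422) left out, in a range up to 0.15 with 1 library left out. That of Cxcl12 turned without control replicates 2 and 4 (-0.28) and with the covariate (-0.44). The difference in the Cxcl12-201 share ranged from -8.36 to 1.58 points with 1 library left out. The endothelial covariate did not overlap between the media, so fits with it cannot fully separate the medium from endothelial markers. The causes were not tested. With the replicate number as a block, Cxcl1, Cxcl3 and Cxcl5 were called (limma adjusted p = 0.0136, 0.0117 and 0.00364) among 69 genes, and no other call of the 8 changed. The median of all genes moved to 0.10 with nuclear totals, and to 0.12 with array weights or without conditioned-medium replicate 4. Depth is unknown, so counting error for genes near 1 FPKM, Cxcl2, Cxcl3 and Cxcl10, could not be given.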
